A study of Homo sapiens with 8 samples.

Results

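The genes described here are 10 that the unfolded protein response is known to induce in the endoplasmic reticulum (ER): HSPA5, HYOU1, DNAJB9, DNAJC3, SDF2L1, HSP90B1, PDIA4, CRELD2, HERPUD1 and XBP1. They were chosen by gene symbol, without a measured value in the rule, although earlier results of these data were known. All 10 were found among the 26716 genes of the table. RNA was measured in HepG2, a human liver cancer cell line, by poly(A) RNA sequencing with single-end reads of 50 bases. There were 4 groups of 2 libraries, harvested 72 h after transfection. The siIPO8-miR-552-3p cells received a miR-552-3p mimic at 1 nM together with an siRNA against importin8 (the gene IPO8) at 30 nM. The miR-552-3p cells received the mimic with a negative control siRNA, the siIPO8-NC cells the importin8 siRNA with a negative control mimic, and the NC cells both controls, at the same concentrations. Every group was thus transfected with a small RNA of each kind, and no untransfected cells were analysed here. All of the results describe one cell line, and transfected mimic is not the cell's own miRNA.

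The unfolded protein response is the set of signals by which a cell answers unfolded protein in the ER. Its sensors are IRE1 (encoded by ERN1), ATF6 and PERK (encoded by EIF2AK3). ATF6, once cut, and XBP1, once its mRNA is spliced by IRE1, are transcription factors that raise the expression of chaperones, folding enzymes and ER-associated degradation (ERAD) proteins, whereas PERK acts through ATF4 and, further on, DDIT3. ATF6 and XBP1 act at ER stress elements in the promoters of such genes. Hepatocytes secrete large amounts of protein and depend on this machinery. A miRNA usually lowers its target mRNAs by pairing its seed with their 3' untranslated regions, and importin8 is a nuclear import receptor that also binds Argonaute proteins.

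The mimic's mature strand is shown because its seed defines the sites that it could pair with. The sequence is that of RefSeq on GRCh38.p14, chr1:34669614-34669634 on the minus strand, with the seed, bases 2 to 8, in capitals.
hsa-miR-552-3p: aACAGGUGacugguuagacaa

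The DNA match to this seed is CACCTGT. It was sought in the annotated 3' untranslated region of a single transcript per gene, that with the longest coding sequence. Other transcripts were not searched. The match occurred in this region in 0 of the 10 genes, against 2749 of 18200 genes with such a region (15.1%). It occurred on either strand of the promoter window of 0 of the 10 genes, against 1150 of 27303 genes (4.21%). These counts say only that those letters are not in these windows.

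Promoter windows of 250 bases before the annotated start were taken from RefSeq for all 10 genes and searched on both strands for exact matches to 3 elements. The ER stress element (ERSE, read as CCAAT, any 9 bases and CCACG) was found in HSPA5, HSP90B1, XBP1 and CRELD2, that is in 4 of the 10 genes, against 25 of 27303 genes with a window (0.0916%). ERSE-II (ATTGG, any 1 base and CCACG) was found in HERPUD1, SDF2L1 and HYOU1, 3 of the 10, against 18 of 27303 genes (0.0659%). The unfolded protein response element (UPRE, TGACGTGG) was found only in HYOU1 among the 10, against 213 of 27303 genes (0.78%), and there it overlapped one of the ERSE-II matches. DNAJB9, DNAJC3 and PDIA4 held no exact match to any of them in this window. Because the 10 genes were chosen as known to be induced by this response, such elements were likely among them from the start. The shares describe the list, and enrichment was not tested. With the mimic under the control siRNA, XBP1 fell, whereas the other genes of the 10 with an ERSE or ERSE-II rose. The matched sites of RefSeq (GRCh38.p14) are shown for comparison. They are written along the strand of the motif, with the fixed letters of the motif in capitals.
HSPA5 ERSE: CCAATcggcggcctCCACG
HSP90B1 ERSE, far site: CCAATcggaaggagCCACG
HSP90B1 ERSE, near site: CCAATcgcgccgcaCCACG
XBP1 ERSE: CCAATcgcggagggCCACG
CRELD2 ERSE: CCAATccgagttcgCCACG
HERPUD1 ERSE-II: ATTGGgCCACG
SDF2L1 ERSE-II: ATTGGtCCACG
HYOU1 ERSE-II, both sites: ATTGGaCCACG

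In HSPA5 the site lay 66 to 48 bases before the start on the strand of the gene (chr9:125241391-125241409), and in XBP1 it lay 52 to 34 bases before the start on the strand of the gene (chr22:28800603-28800621). HSP90B1 had its far site on the strand of the gene (chr12:103930216-103930234) and its near site on the opposite strand (chr12:103930321-103930339). The HERPUD1 site was on the strand of the gene (chr16:56932025-56932035), and those of SDF2L1 (chr22:21642114-21642124), CRELD2 (chr22:49918554-49918572) and HYOU1 (chr11:119057380-119057390 and chr11:119057274-119057284) were on the opposite strand. GENCODE starts HSP90B1 and CRELD2 further upstream than RefSeq does, so their sites lie inside the gene as GENCODE draws it. A match describes the letters of the promoter and is neither a measured binding site nor a cause. The whole windows of HSPA5 (chr9:125241344-125241593), HYOU1 (chr11:119057206-119057455) and XBP1 (chr22:28800570-28800819) follow as context for these sites. All 3 are written along the minus strand of GRCh38.p14, with the matched letters in capitals. In HYOU1, the capitals TGACGTGG are the UPRE.
HSPA5 promoter: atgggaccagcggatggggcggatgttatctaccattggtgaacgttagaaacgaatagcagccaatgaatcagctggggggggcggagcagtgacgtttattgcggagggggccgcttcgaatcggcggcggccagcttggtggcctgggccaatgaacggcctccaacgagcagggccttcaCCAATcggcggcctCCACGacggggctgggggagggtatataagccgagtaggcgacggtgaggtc
HYOU1 promoter: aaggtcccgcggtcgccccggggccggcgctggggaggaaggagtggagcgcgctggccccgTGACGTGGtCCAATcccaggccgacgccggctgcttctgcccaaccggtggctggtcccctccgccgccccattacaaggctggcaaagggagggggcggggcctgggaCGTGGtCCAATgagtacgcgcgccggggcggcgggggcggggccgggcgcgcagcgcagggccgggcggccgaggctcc
XBP1 promoter: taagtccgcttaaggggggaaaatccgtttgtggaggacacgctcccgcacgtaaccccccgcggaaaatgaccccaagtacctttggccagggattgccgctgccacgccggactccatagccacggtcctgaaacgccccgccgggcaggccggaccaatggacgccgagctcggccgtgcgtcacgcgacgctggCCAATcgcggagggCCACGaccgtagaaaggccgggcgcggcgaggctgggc

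**Figure D1:**
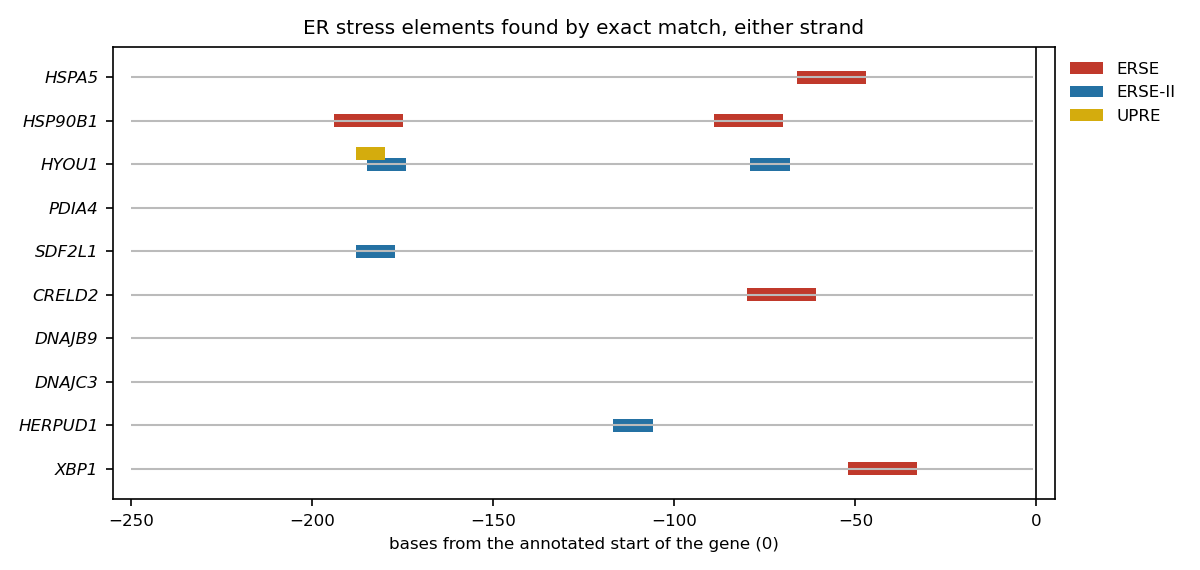
Positions of exact matches to ERSE, ERSE-II and UPRE in the 250 bases before the annotated start (0) of each of the 10 genes, on either strand. The x axis is the distance from the start in bases. A total of 7 genes hold an ERSE or ERSE-II, and DNAJB9, DNAJC3 and PDIA4 hold none of the 3 elements.

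Expected counts summed to between 21608563 and 22102373 per library, and levels are given as CPM (counts per 1000000 counts) on library sizes scaled by the trimmed mean of M values. IPO8 was at 7.65 and 8.30 CPM in siIPO8-miR-552-3p cells, 25.4 and 24.6 CPM in miR-552-3p cells, 11.3 and 11.5 CPM in siIPO8-NC cells and 34.7 and 33.3 CPM in NC cells, so it was lowest in both groups given its siRNA. IPO8 was also lower with the mimic, with log2 fold changes of -0.44 under the control siRNA and -0.52 under the importin8 siRNA. Each group stood apart from the others on the first principal components. On the first, with 51.4% of the variance, the scores were 41.1 and 38.3 in siIPO8-miR-552-3p libraries, 75.3 and 72.4 in miR-552-3p libraries, -19.3 and -24.7 in siIPO8-NC libraries and -88.8 and -94.3 in NC libraries. The hepatocyte genes ALB and AFP were above 7500 CPM in every library. Summed over 8 hepatocyte markers, levels were 68534 to 72404 CPM in siIPO8-miR-552-3p cells, 47330 to 48261 CPM in miR-552-3p cells, 61223 to 63287 CPM in siIPO8-NC cells and 59524 to 65670 CPM in NC cells. Summed over 6 fibroblast markers, of which DCN and LUM had at most 1 count in any library, levels were 9.38 to 10.4 CPM in siIPO8-miR-552-3p cells, 8.58 to 9.25 CPM in miR-552-3p cells, 9.17 to 9.96 CPM in siIPO8-NC cells and 12.9 to 19.8 CPM in NC cells. Summed over 5 of 6 endothelial and blood markers that could be matched, they were 23.2 to 24.2 CPM in siIPO8-miR-552-3p cells, 29.5 to 30.3 CPM in miR-552-3p cells, 19.4 to 21.9 CPM in siIPO8-NC cells and 76.2 to 81.1 CPM in NC cells. The part of these differences between groups in the results was not tested.

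The first question was what the mimic did to the 10 genes with the control siRNA. In miR-552-3p cells, 9 of the 10 rose against NC cells and XBP1 fell. HERPUD1 and HSPA5 rose most, by 5.14-fold and 4.50-fold, and CRELD2 rose least, by 1.45-fold. By edgeR's quasi-likelihood test with Benjamini-Hochberg adjustment, 58.4% of the 17715 genes tested were called in this comparison at an adjusted p below 0.05, 28.9% as higher and 29.5% as lower, so calls were common in both directions. The median log2 fold change of the 10 genes was 1.13, beside -0.01 over all genes tested. Summed over the 10 genes, levels were 5933 and 5805 CPM in miR-552-3p libraries and 2720 and 2500 CPM in NC libraries. Because these are bulk libraries, fewer cells expressing a gene and less RNA of it per cell cannot be told apart.

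The second question was whether the mimic acted in the same way when importin8 was targeted. In siIPO8-miR-552-3p cells, 8 of the 10 rose against siIPO8-NC cells, XBP1 fell, and CRELD2 did not pass the test. In this comparison 31.7% of all genes tested were called, 15.0% as higher and 16.7% as lower. The median log2 fold change of the 10 genes was 1.00. The summed level was 5396 and 5253 CPM in siIPO8-miR-552-3p libraries and 3298 and 3254 CPM in siIPO8-NC libraries. The difference of the 2 mimic effects, tested as an interaction, passed for 7 of the 10 genes. It was below zero for 5 genes (HSPA5, HSP90B1, HERPUD1, PDIA4 and CRELD2), which rose less, or in CRELD2 did not rise, under the importin8 siRNA. It was above zero for DNAJC3, which rose more, and for XBP1, which fell less. Over all genes tested, 31.3% had such a difference called, 17.1% as lower and 14.2% as higher. Since a different pair of control groups is subtracted on each side, these differences also contain whatever set NC cells apart from siIPO8-NC cells.

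**Figure D2:**
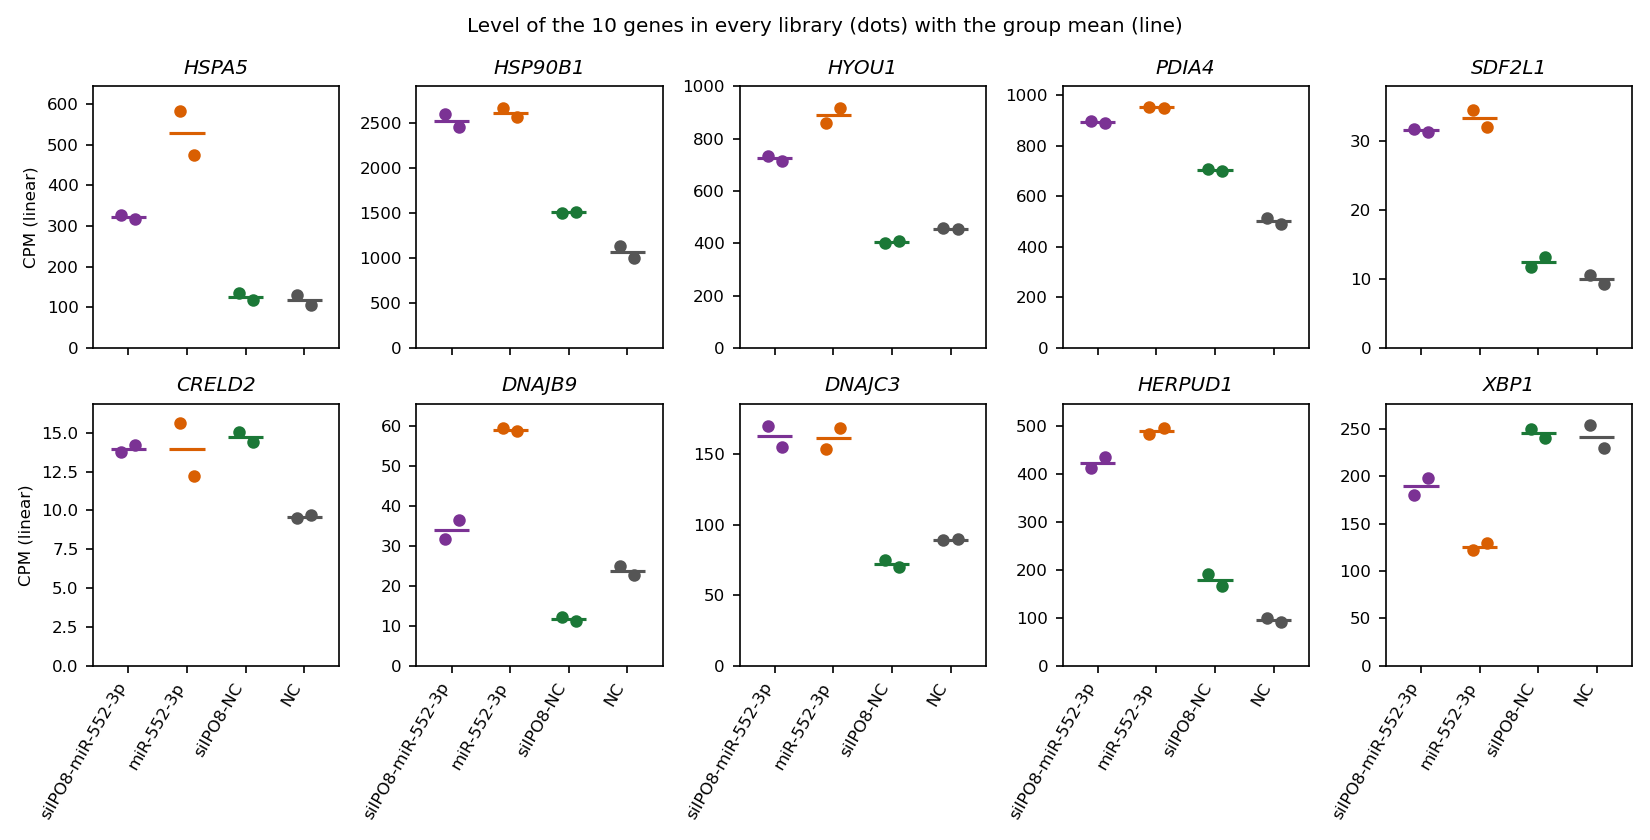
Level of each of the 10 genes in every library, in CPM on a linear axis that starts at 0 in each panel. Dots are libraries and lines are group means. All of the genes except CRELD2 and XBP1 stand higher in all 4 mimic libraries than in any library without the mimic, and XBP1 stands lower.

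HSPA5 encodes BiP, the ER Hsp70 that binds unfolded chains and holds the sensors inactive. It lies at chr9:125234853-125241330 on the minus strand (GRCh38). HSPA5 was at 326 and 318 CPM in siIPO8-miR-552-3p libraries, 584 and 476 CPM in miR-552-3p libraries, 135 and 117 CPM in siIPO8-NC libraries and 129 and 106 CPM in NC libraries. All 4 mimic libraries were above all 4 others, and the ranges of siIPO8-NC and NC overlapped. HSPA5 rose by a log2 fold change of 2.17 ± 0.13 (SE) with the mimic under the control siRNA (adjusted p = 1.2e-06) and of 1.35 ± 0.13 under the importin8 siRNA (adjusted p = 1.1e-04). The difference of these effects was -0.82 ± 0.18 (adjusted p = 0.0084). The miR-552-3p libraries differed from each other more than any other pair did for this gene in CPM, 584 against 476, with an SD of 76.6 CPM (n = 2).

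HYOU1 is the large Hsp70-like protein that makes BiP release ADP, and its gene lies at chr11:119044189-119057202 on the minus strand. HYOU1 was at 734 and 716 CPM in siIPO8-miR-552-3p libraries, 861 and 919 CPM in miR-552-3p libraries, 402 and 410 CPM in siIPO8-NC libraries and 456 and 454 CPM in NC libraries. No 2 groups overlapped. The mimic raised it by 0.97 ± 0.07 on the log2 scale under the control siRNA (adjusted p = 1.0e-06) and by 0.84 ± 0.07 under the importin8 siRNA (adjusted p = 2.0e-05). The difference of the effects, -0.13, did not pass (adjusted p = 0.35). HYOU1 is the gene with 2 ERSE-II matches and the UPRE shown above. Its exons share 666 bases with an antisense transcript, so some of its reads could belong to that transcript if strand was not used.

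DNAJB9 and DNAJC3 are J-domain proteins that send BiP to its clients, and DNAJB9 also binds IRE1. DNAJB9 (chr7:108569568-108574850, plus strand) was at 31.7 and 36.4 CPM in siIPO8-miR-552-3p libraries, 59.5 and 58.7 CPM in miR-552-3p libraries, 12.2 and 11.2 CPM in siIPO8-NC libraries and 24.9 and 22.7 CPM in NC libraries. The groups were all separate, with siIPO8-NC the lowest. DNAJB9 rose by 1.31 ± 0.09 with the mimic under the control siRNA (adjusted p = 7.4e-07) and by 1.55 ± 0.10 under the importin8 siRNA (adjusted p = 5.0e-06), and the difference of 0.23 did not pass (adjusted p = 0.21). Its exons overlap THAP5 on the opposite strand by 183 bases. DNAJC3 (chr13:95677139-95794989, plus strand) was at 170 and 155 CPM in siIPO8-miR-552-3p libraries, 154 and 169 CPM in miR-552-3p libraries, 75.1 and 69.7 CPM in siIPO8-NC libraries and 89.2 and 89.8 CPM in NC libraries. Both mimic groups overlapped each other and stood above both groups without it. DNAJC3 rose by 0.85 ± 0.07 under the control siRNA (adjusted p = 4.5e-06) and by 1.17 ± 0.07 under the importin8 siRNA (adjusted p = 5.7e-06). The difference of 0.32 ± 0.10 passed narrowly (adjusted p = 0.042), and under 7 alternative fits it was 0.25 to 0.37 with adjusted p from 0.054 to 0.158. Of these, 5 left out NC replicate 2, miR-552-3p replicate 1, either siIPO8-NC library or siIPO8-miR-552-3p replicate 1.

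SDF2L1 is an ER protein that works with the J-domain protein DNAJB11 on BiP clients. Its gene lies at chr22:21642261-21644298 on the plus strand. SDF2L1 was at 31.8 and 31.3 CPM in siIPO8-miR-552-3p libraries, 34.6 and 32.0 CPM in miR-552-3p libraries, 11.8 and 13.1 CPM in siIPO8-NC libraries and 10.6 and 9.20 CPM in NC libraries. The 4 mimic libraries were close to each other and far above the rest. The log2 fold change was 1.75 ± 0.10 under the control siRNA (adjusted p = 2.3e-07) and 1.34 ± 0.10 under the importin8 siRNA (adjusted p = 1.1e-05). The difference of -0.41 ± 0.14 did not pass (adjusted p = 0.051), although it did without NC replicate 1 (adjusted p = 0.027).

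HSP90B1 encodes the ER form of Hsp90, a chaperone of late folding stages. It lies at chr12:103930107-103953645 on the plus strand and was the most abundant of the 10 genes per length in every group. HSP90B1 was at 2598 and 2458 CPM in siIPO8-miR-552-3p libraries, 2664 and 2564 CPM in miR-552-3p libraries, 1498 and 1513 CPM in siIPO8-NC libraries and 1132 and 999 CPM in NC libraries. The mimic groups overlapped, siIPO8-NC lay between them and NC, and NC was lowest. HSP90B1 rose by 1.29 ± 0.09 under the control siRNA (adjusted p = 7.6e-07) and by 0.75 ± 0.09 under the importin8 siRNA (adjusted p = 1.6e-04), a difference of -0.55 ± 0.12 (adjusted p = 0.0071). The gene overlaps the small RNA gene MIR3652 by 131 bases.

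PDIA4 is a protein disulfide isomerase, encoded at chr7:149003062-149028641 on the minus strand. PDIA4 was at 897 and 891 CPM in siIPO8-miR-552-3p libraries, 955 and 951 CPM in miR-552-3p libraries, 707 and 698 CPM in siIPO8-NC libraries and 514 and 489 CPM in NC libraries. It followed the same order of groups as HSP90B1, here with no overlap. PDIA4 rose by 0.93 ± 0.07 under the control siRNA (adjusted p = 1.4e-06) and by 0.35 ± 0.07 under the importin8 siRNA (adjusted p = 0.0034), a difference of -0.58 ± 0.10 (adjusted p = 0.0013).

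CRELD2 is an ER protein with EGF-like repeats that is induced by ER stress, and its gene lies at chr22:49918167-49927540 on the plus strand. CRELD2 was at 13.8 and 14.2 CPM in siIPO8-miR-552-3p libraries, 15.6 and 12.3 CPM in miR-552-3p libraries, 15.0 and 14.4 CPM in siIPO8-NC libraries and 9.50 and 9.69 CPM in NC libraries. Only NC stood apart, below the other 3 groups, whose levels lay close together. CRELD2 rose by 0.54 ± 0.13 with the mimic under the control siRNA (adjusted p = 0.0041), or by 0.36 without miR-552-3p replicate 1, and its log2 fold change under the importin8 siRNA was -0.07 ± 0.12 (adjusted p = 0.70). The difference of -0.61 ± 0.18 passed (adjusted p = 0.024) but did not under 7 alternative fits, in which it was -0.64 to -0.43 with adjusted p from 0.051 to 0.127. One was DESeq2, and the others left out any single library except NC replicate 2 and miR-552-3p replicate 2.

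HERPUD1 is a membrane protein that helps to assemble the ERAD ubiquitin ligase complex. Its gene lies at chr16:56932048-56944863 on the plus strand. HERPUD1 was at 412 and 436 CPM in siIPO8-miR-552-3p libraries, 484 and 496 CPM in miR-552-3p libraries, 192 and 167 CPM in siIPO8-NC libraries and 100 and 90.3 CPM in NC libraries. All 4 groups were separate. HERPUD1 rose by 2.36 ± 0.09 under the control siRNA (adjusted p = 1.3e-08) and by 1.24 ± 0.08 under the importin8 siRNA (adjusted p = 7.4e-06). The difference, -1.12 ± 0.12 (adjusted p = 8.4e-05), was the largest among the 10 genes in size. HERPUD1 was higher with the mimic in both arms, and it was already higher in siIPO8-NC than in NC cells.

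XBP1 is the transcription factor of the IRE1 branch, encoded at chr22:28794555-28800597 on the minus strand, and it was the only one of the 10 to fall with the mimic. XBP1 was at 181 and 198 CPM in siIPO8-miR-552-3p libraries, 122 and 129 CPM in miR-552-3p libraries, 250 and 241 CPM in siIPO8-NC libraries and 254 and 230 CPM in NC libraries. The groups without the mimic overlapped, siIPO8-miR-552-3p was below both, and miR-552-3p was lowest. XBP1 changed by -0.95 ± 0.08 on the log2 scale under the control siRNA (adjusted p = 2.6e-06), 1.93-fold lower, and by -0.37 ± 0.08 under the importin8 siRNA (adjusted p = 0.0041). The difference of 0.57 ± 0.11 passed (adjusted p = 0.0026). Counts per gene do not separate the spliced from the unspliced mRNA, so the active form was not measured. XBP1 and HSPA5 both hold an ERSE close to the start, as shown above, and moved in opposite directions. The part of this element in either change was not tested.

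**Figure D3:**
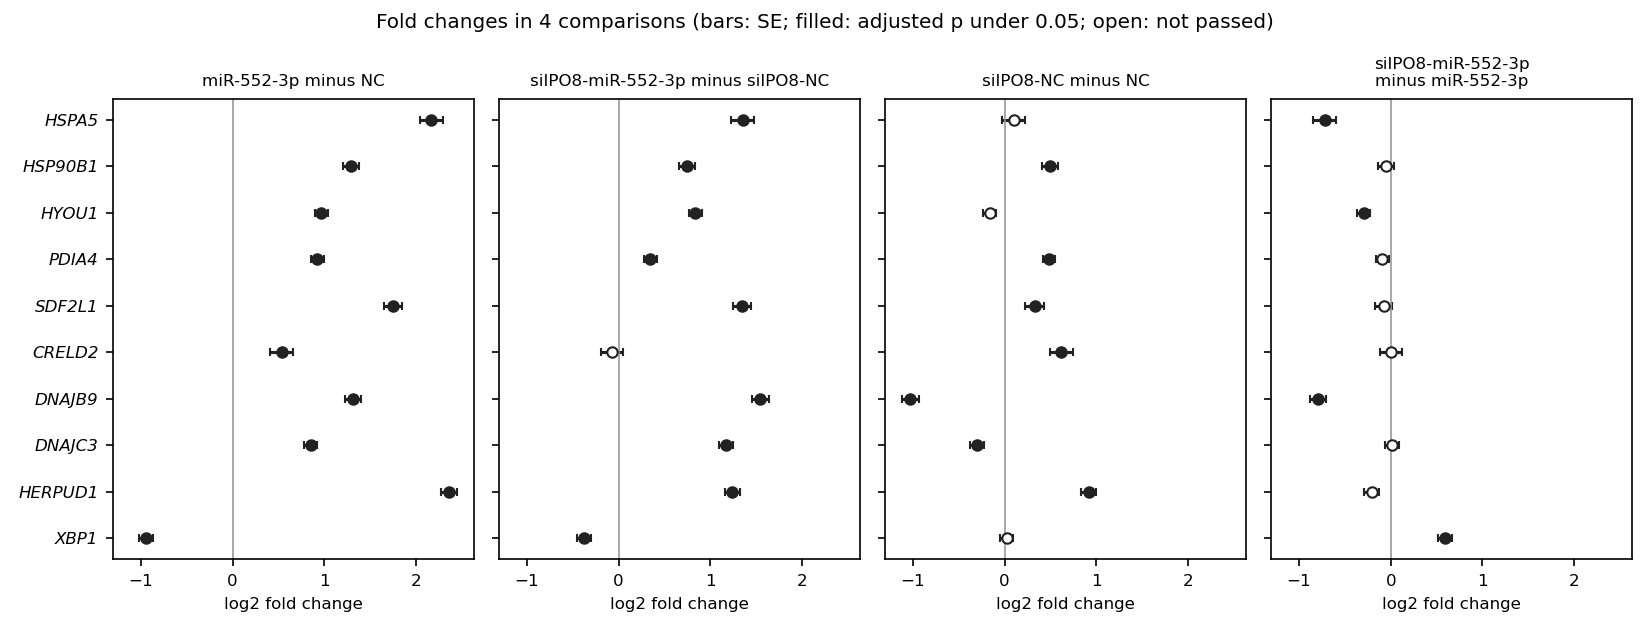
Log2 fold change of the 10 genes in 4 comparisons, with bars for the standard error. Filled points had an adjusted p below 0.05 in edgeR's quasi-likelihood test and open points did not. In the left panels XBP1 is left of 0 and HERPUD1 is far to the right, at 2.36 and 1.24, and in the right panels DNAJB9 is left of 0.

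The importin8 siRNA alone was compared in siIPO8-NC and NC cells. Here 5 of the 10 genes rose (HERPUD1, CRELD2, HSP90B1, PDIA4 and SDF2L1), DNAJB9 and DNAJC3 fell, and HSPA5, HYOU1 and XBP1 did not pass. Among all genes tested 47.0% were called, 25.4% as higher and 21.6% as lower, and the median log2 fold change was 0.21 over the 10 genes. HERPUD1 rose by 0.91 ± 0.09 (adjusted p = 1.7e-05) and CRELD2 by 0.62 ± 0.13 (adjusted p = 0.0025). HSP90B1 rose by 0.50 ± 0.09 (adjusted p = 9.6e-04) and PDIA4 by 0.49 ± 0.07 (adjusted p = 2.3e-04). DNAJB9, the IRE1-binding J-domain protein, fell by 1.03 ± 0.10 (adjusted p = 1.8e-05), to 2.04-fold lower, and DNAJC3 fell by 0.31 ± 0.07 (adjusted p = 0.0071). SDF2L1 had a smaller rise of 0.33 ± 0.11 (adjusted p = 0.027). HSPA5 had a log2 fold change of 0.10 ± 0.13 (adjusted p = 0.57), XBP1 of 0.02 ± 0.07 (adjusted p = 0.85) and HYOU1 of -0.16 ± 0.07 (adjusted p = 0.073). SDF2L1 lost its call in 6 alternatives, among them without NC replicate 2 (adjusted p = 0.157) or siIPO8-NC replicate 2 (adjusted p = 0.160), DNAJC3 lost it without siIPO8-NC replicate 2 (-0.25, adjusted p = 0.076), and HYOU1 gained a call as lower in 4, with adjusted p from 0.012 to 0.045.

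With the mimic present in both groups, the siRNA comparison was between siIPO8-miR-552-3p and miR-552-3p cells. The NC libraries entered it through the shared estimate of spread, the choice of genes tested, the scaling and the adjustment, not through the group means compared. DNAJB9, HSPA5 and HYOU1 fell, XBP1 rose, and the other 6 genes did not pass, where 33.5% of all genes tested were called, 16.2% as lower and 17.3% as higher. DNAJB9 fell by 0.79 ± 0.09 (adjusted p = 8.3e-05), HSPA5 by 0.72 ± 0.12 (adjusted p = 0.0023) and HYOU1 by 0.30 ± 0.07 (adjusted p = 0.0075). XBP1 rose by 0.59 ± 0.08 (adjusted p = 2.4e-04). DNAJB9 was thus called lower with the importin8 siRNA both with and without the mimic. HYOU1 was also below in both comparisons with no overlap of groups, but without the mimic it did not pass (adjusted p = 0.073). The log2 fold changes of HSP90B1 (-0.05), DNAJC3 (0.01), SDF2L1 (-0.08), PDIA4 (-0.09) and CRELD2 (0.00) were near 0, with adjusted p of 0.34 or more, and that of HERPUD1 was -0.21 ± 0.08 (adjusted p = 0.081). HYOU1 lost its call without miR-552-3p replicate 2 (-0.24, adjusted p = 0.072) or siIPO8-miR-552-3p replicate 2 (-0.27, adjusted p = 0.061). HERPUD1 passed as lower under 6 alternatives, with log2 fold changes of -0.24 to -0.20 and adjusted p from 0.014 to 0.048, one of them the fit without both NC libraries.

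Levels of different genes were compared per length, as the deposited FPKM. HSP90B1 was first and PDIA4 second of the 10 in all 4 groups, and HSP90B1 had a mean of 1018 FPKM in miR-552-3p cells and 434 FPKM in NC cells. XBP1 took the third place in NC cells with 138 FPKM, and had 68.8 FPKM in miR-552-3p cells, where HERPUD1, HYOU1 and HSPA5 all exceeded it. HERPUD1 had 241 FPKM in miR-552-3p cells and 49.0 FPKM in NC cells, and HSPA5 had 131 FPKM in miR-552-3p cells and 30.4 FPKM in NC cells. The lowest of the 10 was CRELD2 in both mimic groups and in NC cells, and DNAJB9 in siIPO8-NC cells.

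The sensors and regulators of the response were described next, as a list of 14 genes of which 13 were tested. With the mimic under the control siRNA, 9 of the 13 rose and 3 fell, and under the importin8 siRNA 8 rose and 1 fell, with median log2 fold changes of 0.52 and 0.39. The shares of all genes called were 28.9% higher and 29.5% lower under the control siRNA, and 15.0% higher and 16.7% lower under the importin8 siRNA. ERN1, which encodes IRE1, was at 57.9 and 51.8 CPM in siIPO8-miR-552-3p libraries, 66.3 and 66.0 CPM in miR-552-3p libraries, 32.4 and 32.4 CPM in siIPO8-NC libraries and 12.6 and 14.9 CPM in NC libraries. The 4 groups were separate. It rose with the mimic by 2.26 ± 0.09 under the control siRNA (adjusted p = 2.1e-08) and by 0.76 ± 0.08 under the importin8 siRNA (adjusted p = 1.3e-04), so its mRNA and that of XBP1, its substrate, moved in opposite directions. DDIT3, the stress-induced transcription factor also called CHOP, was at 132 and 138 CPM in siIPO8-miR-552-3p libraries, 213 and 187 CPM in miR-552-3p libraries, 79.5 and 71.9 CPM in siIPO8-NC libraries and 34.7 and 30.1 CPM in NC libraries. It had the same order of group means as HSPA5, HSP90B1, SDF2L1, PDIA4 and HERPUD1, and the groups of DDIT3 did not overlap. DDIT3 rose by 2.63 ± 0.10 under the control siRNA (adjusted p = 1.3e-08) and by 0.84 ± 0.09 under the importin8 siRNA (adjusted p = 1.1e-04). In limma on log2(FPKM + 0.1) the DDIT3 rise under the control siRNA was 3.52.

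ATF6 and ATF4 rose with the mimic to a similar degree in both arms. ATF6 had log2 fold changes of 0.70 ± 0.07 and 0.64 ± 0.07 under the control and importin8 siRNA, and ATF4 of 0.50 ± 0.07 and 0.45 ± 0.07, and their differences between arms, both -0.05, did not pass (adjusted p = 0.74 for ATF6 and 0.77 for ATF4). EIF2AK3, which encodes PERK, was at 36.4 and 34.8 CPM in siIPO8-miR-552-3p libraries, 43.7 and 47.5 CPM in miR-552-3p libraries, 30.3 and 29.4 CPM in siIPO8-NC libraries and 55.3 and 54.7 CPM in NC libraries. Its changes with the mimic had opposite signs, -0.27 ± 0.07 under the control siRNA (adjusted p = 0.0064) and 0.25 ± 0.07 under the importin8 siRNA (adjusted p = 0.021). The first call was lost with DESeq2 and without miR-552-3p replicate 1. The second was lost in 5 alternatives, among them without either siIPO8-NC library or siIPO8-miR-552-3p replicate 1. With the importin8 siRNA alone, 8 of the 13 rose and 2 fell, where 25.4% of all genes were called higher and 21.6% lower. In that comparison ERN1 rose by 1.24 ± 0.09 and DDIT3 by 1.22 ± 0.10, EIF2AK3 fell by 0.88 ± 0.07 (adjusted p at most 5.4e-06 for these 3; DDIT3 by 2.01 in limma on log2(FPKM + 0.1)), and ATF6 and ATF4 had adjusted p of 0.42 and 0.99. With the mimic in both groups, 2 rose and 3 fell, where 17.3% of all genes were called higher and 16.2% lower. There DDIT3 fell by 0.57 ± 0.09 (adjusted p = 7.7e-04) and EIF2AK3 by 0.36 ± 0.07 (adjusted p = 0.0030), and a fall of 0.27 ± 0.08 in ERN1 (adjusted p = 0.029) was lost in 7 alternatives, among them without either library of miR-552-3p or siIPO8-NC or siIPO8-miR-552-3p replicate 2.

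Other genes of ER protein folding, ERAD, and translocation and glycosylation changed in both directions. With the mimic under the control siRNA, 12 of 24 folding genes rose and 5 fell, 10 of 19 ERAD genes rose and 5 fell, and 14 of 24 translocation and glycosylation genes rose and 2 fell, where 28.9% of all genes were called higher and 29.5% lower. The medians of these lists, 0.22, 0.19 and 0.25 on the log2 scale, were below the 1.13 of the 10 genes. Among the folding genes, the oxidase ERO1B rose by 2.01, the Hsp70 relative HSPA13 by 1.53 and MANF, a secreted protein induced by ER stress, by 1.13, whereas the thioredoxin-like proteins PDIA5 and TXNDC5 fell by 1.37 and 1.10 and the prolyl isomerase FKBP14 by 0.89. Among the ERAD genes, the ubiquitin ligase SYVN1 rose by 1.05 and its partner SEL1L by 1.55, with DERL2 at 1.17, while EDEM3 fell by 0.95, EDEM2 by 0.80 and the lectin OS9 by 0.44. The EDEM2 call was lost in 5 alternatives, 3 of them the fits without NC replicate 1, where its log2 fold change was -0.40, or without either miR-552-3p library. Among the translocation and glycosylation genes, the changes were smaller, with SSR3 up by 0.83, SEC61G by 0.69 and the oligosaccharyltransferase subunit DAD1 by 0.62, and SRPRA down at -0.38 and SEC61A1 at -0.26.

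Under the importin8 siRNA the mimic raised 13 of 24 folding genes and lowered 3, raised 11 of 19 ERAD genes and lowered 1, and raised 17 of 24 translocation and glycosylation genes and lowered 2, where 15.0% of all genes were called higher and 16.7% lower. Up to 3 rises are named per list, on the log2 scale. They were ERO1B (1.74), HSPA13 (1.04) and MANF (0.98) among the folding genes, SEL1L (1.21), SYVN1 (0.99) and UBE2J1 (0.86) among the ERAD genes, and SSR3 (0.58), SSR1 (0.57) and TRAM1 (0.55) among the translocation and glycosylation genes. PDIA5 (-0.45) and TXNDC5 (-0.40) fell. Smaller falls of FKBP14 (-0.37), SEC61A1 (-0.25), SRPRA (-0.24) and MAN1B1 (-0.24) each lost their call when replicate 1 of siIPO8-miR-552-3p or of siIPO8-NC was left out. The interaction passed for 8 of the 24 folding genes, 6 of the 19 ERAD genes and 3 of the 24 translocation and glycosylation genes, where it passed for 31.3% of all genes. The list medians were 0.01, 0.02 and 0.02, beside -0.48 for the 10 genes.

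**Figure D4:**
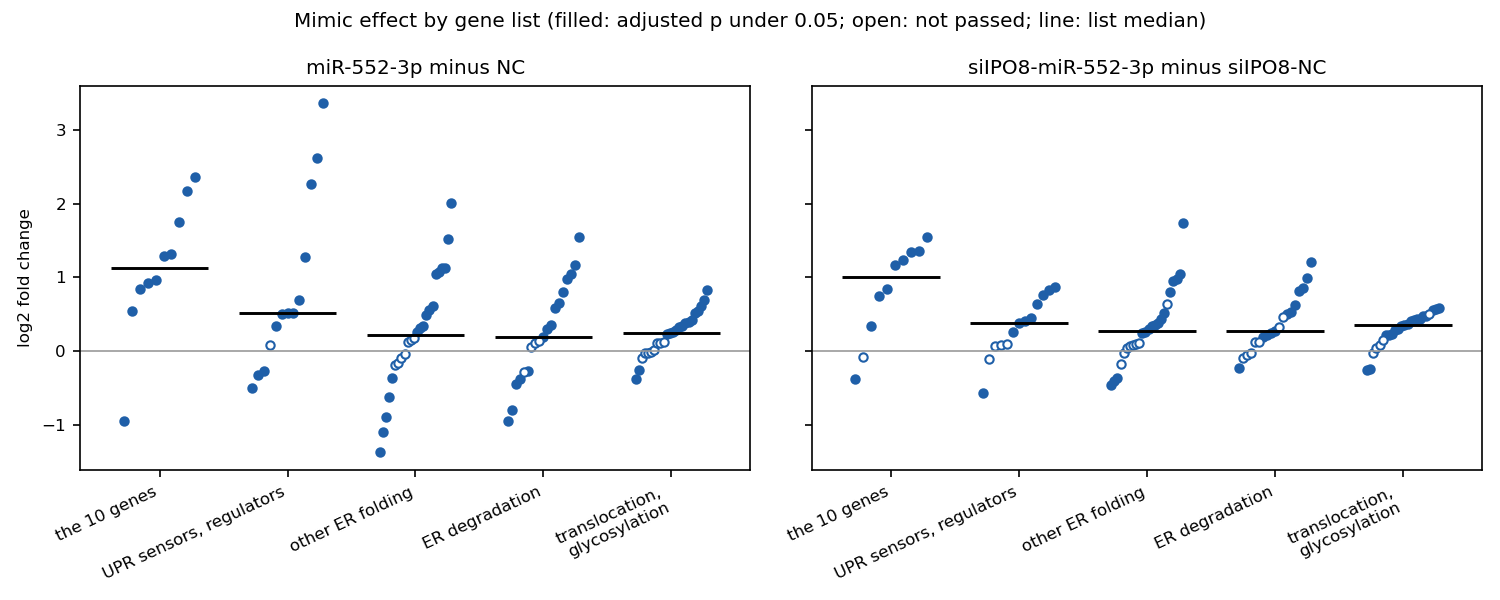
Log2 fold changes with the mimic under the control siRNA (left) and the importin8 siRNA (right) for the 10 genes, the 13 tested sensors and regulators, 24 other folding genes, 19 ERAD genes and 24 translocation and glycosylation genes. Each point is a gene, filled where its adjusted p was below 0.05, and lines are list medians. The 10 genes have medians of 1.13 and 1.00, and each of the other lists has genes on both sides of 0.

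In siIPO8-NC against NC cells, 6 folding genes rose and 2 fell, 3 ERAD genes rose and 5 fell, and 10 translocation and glycosylation genes rose and 2 fell, where 25.4% of all genes were called higher and 21.6% lower. The lectin chaperone CALR rose by 0.57, SELENOS by 0.51 and the signal recognition particle receptor subunit SRPRA by 1.02, while PDIA5 fell by 0.48, SELENOK by 0.83 and the signal peptidase subunit SPCS2 by 1.12. In siIPO8-miR-552-3p against miR-552-3p cells, 8 folding genes rose and 2 fell, 3 ERAD genes rose and 4 fell, and 11 translocation and glycosylation genes rose and 2 fell, where 17.3% of all genes were called higher and 16.2% lower. TXNDC5 rose by 0.71, FKBP11 by 0.60 and SRPRA by 1.16, while ERO1B fell by 0.92, SEL1L by 0.43 and SPCS2 by 0.77. The ERO1B call was lost in limma on log2(FPKM + 0.1). The largest called ERAD rise was that of EDEM2, by 1.11, and its call was lost in 3 alternatives.

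The elements shown above also occur in promoters of other genes. Besides the 7 of the 10 genes with an ERSE or ERSE-II, 36 other genes held one, and 28 of these were tested. With the mimic, 13 of the 28 rose and 4 fell under the control siRNA (median log2 fold change 0.23), and 11 rose and 1 fell under the importin8 siRNA (median 0.18). FICD, an enzyme that modifies BiP, rose by 1.46 (adjusted p = 5.2e-05) and 1.15 (adjusted p = 5.8e-04) in the 2 arms. FICD was picked from these 28 after its values were seen. Over all genes tested, 28.9% were called higher and 29.5% lower under the control siRNA, and 15.0% higher and 16.7% lower under the importin8 siRNA. Among the 10 genes, XBP1 holds an ERSE and fell, and the others with an ERSE or ERSE-II rose under the control siRNA. DNAJB9, DNAJC3 and PDIA4 hold no exact match to the elements in this window and rose. Inexact matches were not searched, and the part of the elements in these changes was not tested.

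The pattern of HSPA5 over the 8 libraries was compared with those of 11482 other genes by Pearson's r of log2 CPM, as a description. The 5 most alike were GHITM (r = 0.999), SARS, a seryl-tRNA synthetase (r = 0.998), DYNC1I2 (r = 0.997), RABEPK (r = 0.996) and FAM177A1 (r = 0.996). RABEPK lies next to HSPA5, at chr9:125200542-125234158 on the plus strand, and ends 694 bases from it. Among the 10 genes, r with HSPA5 was 0.972 for HYOU1, 0.958 for SDF2L1, 0.932 for HERPUD1, 0.926 for HSP90B1, 0.914 for DNAJC3, 0.882 for PDIA4, 0.878 for DNAJB9, 0.468 for CRELD2 and -0.936 for XBP1. The points share the same 8 libraries in 4 groups, so these values mostly restate the group means.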

How the data were processed

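Libraries were grouped by their sample titles, and the table's abbreviated column names (SI for importin8 siRNA, 5 for the mimic) were matched to those titles. Per the file headers, the deposited table gives an expected count and an FPKM for each gene and library. The authors' FPKM is taken to be the column headed Expression. HISAT2 2.0.4, Bowtie2 2.2.5, RSEM 1.2.8 and GRCh38.p12 are named in the submitters' processing notes, with no role given. The sources used here do not say whether strand was used, and reads of 50 bases with expected counts divide reads among similar or overlapping genes, which can blur them.

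Expected counts were rounded, filtered with filterByExpr (17715 of 26716 genes kept), scaled by TMM and tested with the quasi-likelihood F test of edgeR 4.0.16 (R 4.3.3), two-sided, in one fit of all 8 libraries. Benjamini-Hochberg adjustment covered all genes tested, and the threshold was 0.05. The standard error is the log2 fold change divided by the square root of F. Alternatives were DESeq2 1.42.0, limma 3.58.1 (voom, and log2(FPKM + 0.1)), 2 other scalings, no filter, fewer libraries, a replicate block and each library left out.

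Whether replicates were separate cultures is not stated, and the p-values therefore reflect library-to-library spread that could be technical. With 2 libraries per group that spread is estimated from few samples. Replicate libraries were not duplicates: their counts differed 4.33 to 10.1 times as much, in chi-square over its degrees of freedom, as sampling alone would give. The genes and lists were chosen with earlier results of these data known. Genes named from the 3 ER lists were up to 3 called rises and 3 called falls largest in size, at a mean of at least 100 counts. Promoter and miRNA sequences are from RefSeq (GRCh38.p14), gene positions and untranslated regions from GENCODE on GRCh38.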

Additional observations from a re-analysis of the deposited data

Results flagged for a closer look

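The mimic effect differed between the importin8 siRNA and the control siRNA, by the interaction term of edgeR's quasi-likelihood test with Benjamini-Hochberg adjustment, for 7 of the 10 genes, where it passed for 31.3% of all genes tested. As log2 differences, these were -0.82 for HSPA5, -0.55 for HSP90B1, 0.32 for DNAJC3, -1.12 for HERPUD1, 0.57 for XBP1, -0.58 for PDIA4 and -0.61 for CRELD2. Of the 13 regulators tested, the difference was called lower for 6 and higher for 2, where 17.1% of all genes were called lower and 14.2% higher. Among the regulators described by name above, ERN1 (-1.51), DDIT3 (-1.79) and EIF2AK3 (0.52) differed, and ATF6 and ATF4 did not pass. The calls of DNAJC3 and CRELD2 were each lost in 7 alternatives, and the DDIT3 difference was -2.59 in limma on log2(FPKM + 0.1). For HERPUD1, ERN1 and DDIT3, siIPO8-NC cells were higher than NC cells, by 0.91, 1.24 and 1.22 on the log2 scale. HSP90B1 and CRELD2 were also higher in siIPO8-NC than in NC cells, by 0.50 and 0.62, as was PDIA4, and DNAJC3 was lower. Between siIPO8-miR-552-3p and miR-552-3p cells, HSP90B1 (-0.05), CRELD2 (0.003), PDIA4 and DNAJC3 did not pass. For HSPA5 and XBP1, siIPO8-NC and NC cells overlapped, and the groups that differed were siIPO8-miR-552-3p and miR-552-3p, by -0.72 and 0.59.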

How the results depend on the processing

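Over 810 refits of the 10 genes under the alternatives, 761 kept direction and side of the threshold, 23 lost a call, 11 gained one and 15 changed sign, the last without a call. All 160 refits of the mimic under the control siRNA and all 170 under the importin8 siRNA kept theirs, with 9 rises and 1 fall under the control siRNA and 8 rises and 1 fall under the importin8 siRNA throughout. Among the 10 genes, the mimic effect differed upward for 1 with DESeq2 and for 1 with limma on log2(FPKM + 0.1), against 2 in edgeR. It differed downward for 4 with DESeq2, against 5 in edgeR. Some of these calls, in both directions, were also lost with single libraries left out. For the importin8 siRNA alone, 3 genes were called lower with upper-quartile scaling, DESeq2 and both limma fits, against 2 in edgeR with TMM. As higher, 4 were called with upper-quartile scaling, DESeq2, limma on log2(FPKM + 0.1) and the 4 libraries compared, against 5. Fewer were called in either direction without siIPO8-NC replicate 2. Sign changes of uncalled values were small. For siIPO8-NC against NC, XBP1 was -0.046 with upper-quartile scaling, and with single libraries left out XBP1 ranged from -0.050 to 0.085, HSPA5 from -0.034 to 0.235 and ATF4 from -0.077 to 0.068. For siIPO8-miR-552-3p against miR-552-3p, CRELD2 was -9.9e-04 with DESeq2's size factors in edgeR, -0.0043 with upper-quartile scaling, -8.0e-04 with DESeq2, -0.013 with FPKM and -0.0019 with 4 libraries, and DNAJC3 was -0.011 with FPKM. With single libraries left out, CRELD2 ranged from -0.15 to 0.19, DNAJC3 from -0.053 to 0.090 and ATF6 from -0.0092 to 0.063. For the difference of mimic effects, ATF6 was 0.0064 with upper-quartile scaling and 0.047 with FPKM, ATF4 was 0.0093 with upper-quartile scaling, and with single libraries left out ATF6 ranged from -0.12 to 0.024 and ATF4 from -0.12 to 0.029. Deviations of replicates with the same number had correlations of -0.0034 to 0.0867 over all genes tested. Sampling noise of low counts also lowers such values, so this check cannot decide whether replicates were paired. The fit with a replicate block gave the same counts for the 10 genes, 9 rises and 1 fall for the mimic under the control siRNA among them. With both NC libraries left out, 8 of the 10 rose and 1 fell with the mimic under the importin8 siRNA. Where a fit left 1 library in a group, that library is assumed to vary like the others. CRELD2, at 9.50 to 15.6 CPM, had the lowest FPKM of the 10 in 3 of the 4 groups, and its standard errors of 0.12 to 0.18 were close to those of HSPA5, 0.12 to 0.18.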
